A study of Homo sapiens with 13 samples.

Results

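DAZL-positive primordial germ cell-like cells (PGCLCs) sorted on day 8 after induction (d8 DZ+PGCLC) were compared with DAZL-positive cells sorted on day 4 (d4 DZ+PGCLC). The comparison rests on 4 bulk RNA-seq libraries, 2 for each day, of the 10 RNA-seq libraries and 13 samples of the series, and the libraries were taken by their labels. It asks how the transcriptome differed between the earlier and the later sort when the parental line, the inducible genes, the cytokines and the sorting marker were the same. Both groups came from WIS2, a human embryonic stem cell line, with a DAZL-tdTomato reporter. Transgenes for SOX17, which dexamethasone activates, and for DMRT1, which doxycycline switches on, were carried by both groups. The study's methods add that BCL2L1 was also placed in the doxycycline-inducible vector, and the transgenic lines were grown from picked colonies. The sources do not say whether the d8 and d4 libraries share a clone. Both groups received BMP2, SCF, EGF and a ROCK inhibitor with dexamethasone for 1 day, and then activin A, retinoic acid, SCF and EGF with dexamethasone and doxycycline. For this last step the labels give 2 days in both groups, so they do not say how the cells sorted on day 8 were kept in between. The other libraries of the fit, which give only the spread and a context, were 4i ESC (the naive-like stem cell state from which PGCLCs are induced), N3+PGCLC (sorted for NANOS3) and DM+PGCLC (moved on day 3 to activin A and retinoic acid), 2 each, from another reporter line.

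The values cover 9706 genes, the union of 3 lists of genes that the authors set against 4i ESC, those of N3+PGCLC (2577 genes), DM+PGCLC (5392 genes) and d8 DZ+PGCLC (6862 genes). The d8 DZ+PGCLC libraries thus took part in choosing 6862 of the genes, whereas the d4 DZ+PGCLC libraries took part in choosing none, and 2844 genes were listed without the d8 libraries. Genes such as DDX4, DND1, DPPA3, MAEL, SYCP3, DNMT1, DNMT3A and FOS were not analysed here.

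Primordial germ cells are the founders of sperm and eggs. In humans their specification depends on SOX17, PRDM1 and TFAP2C, and once they reach the gonad they switch on DAZL, an RNA-binding protein of the committed germline, while the DNA is demethylated and the early pluripotency genes are later silenced. DMRT1 is a DNA-binding factor of the gonadal germline and of the testis. The mitotic germ cells of the male then stop dividing, and genes that guard the genome against transposons, among them those of the piRNA pathway, become active.

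Replicates resembled each other more than the days did. Across genes, Pearson's r was 0.984 between the d8 libraries and 0.976 between the d4 libraries, against 0.901 to 0.917 between a d8 and a d4 library, as a description over genes that are not independent. Read totals were not among the files, but the steps between low values gave a relative depth of 1.33 and 1.31 for the d8 libraries and of 1 and 0.777 for the d4 libraries, with replicate 1 of d4 set to 1. Of the 9706 genes, 381 and 353 were listed at 0 in the d8 libraries, against 908 and 880 in the d4 libraries. At 1 RPKM (reads per kilobase of transcript, scaled to the mapped reads of the library) or more stood 7040 and 7135 genes in the d8 libraries, against 6533 and 6628 in the d4 libraries. The step was shared by 16 of 138 and 16 of 133 low genes for the d8 libraries. For d4 replicate 2 it was shared by 48 of 201, so depth is only an estimate. Estimated depth and the number of low genes thus moved with the day of the sort, and their part in the differences of low genes was not tested.

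The label of the cells was checked against the sort marker, the inducible genes and endogenous germ cell genes. DAZL, the gene of the sort, had levels, in log2(RPKM + 0.1) as all levels below, of 1.27 and 2.21 in d8 DZ+PGCLC, against 3.51 and 2.08 in d4 DZ+PGCLC (difference -1.06, SE 0.54, adjusted p = 0.173), with overlapping groups. The difference lay between -0.35 (without d4 replicate 1) and -1.78 (without d4 replicate 2, adjusted p = 0.0428) when a library was left out, and DAZL was also called lower with the trend of level removed (-1.73, adjusted p = 0.0421). Its mean in 4i ESC was -2.73, below every DZ+PGCLC library. DMRT1, induced by doxycycline, was at 12.42 and 12.24 in d8 libraries, against 12.18 and 12.01 in d4 libraries, a difference of 0.23 (adjusted p = 0.232). SOX17 was at 7.66 and 7.56 at d8, against 6.76 and 6.39 at d4, a difference of 1.04 (adjusted p = 0.185). Neither difference passed the test. Under alternatives, SOX17 was called higher in a fit of the 4 DZ+PGCLC libraries alone (adjusted p = 0.0426) and with a pseudocount of 1 (adjusted p = 0.049), and DMRT1 under quantile normalization (1.08, adjusted p = 0.000676). Reads of the transgenes and of the cells' own copies were counted together. NANOS3, an RNA-binding protein of early germ cells, was near the floor on both days, at -3.32 and -1.72 in d8 libraries and at -1.49 and -2.24 in d4 libraries, where -3.32 is the level of a gene listed at 0. The same held for NANOG, a factor of the pluripotent state, at -1.87 and -0.93 in d8 libraries, against -0.68 and -0.86 in d4 libraries, whereas its mean was 5.65 in 4i ESC, 7.43 in N3+PGCLC and 7.04 in DM+PGCLC.

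BCL2L1, which encodes the anti-apoptotic protein BCL-xL and lies at chr20:31664452-31723989 (GRCh38), was listed at 0 in both d8 libraries, against 48663 and 45387 RPKM in the d4 libraries. There it took 20 and 20.4% of the summed RPKM of the listed genes. In 4i ESC it stood at 67.3 and 65.8 RPKM, and it was above 0 in every library other than those of d8, so the listing at 0 may be a failed estimate, and no fold is given for it. Since a gene that takes so many reads lowers the RPKM of the others in its library, the comparison was repeated after rescaling each library to its sum without BCL2L1. Those sums were close to each other, at 186483 and 186961 RPKM in the d8 libraries and at 194754 and 176628 RPKM in the d4 libraries, and the differences moved by a median of -0.01, from -0.42 to 0.40. After the rescaling 1545 genes were higher and 835 lower, which included 1469 of the genes called higher and 791 of those called lower before it, or 98.3% of all calls, and no call changed direction.

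From day 4 to day 8 the levels of 1493 genes rose (15.4% of 9706) and those of 806 genes, BCL2L1 included, fell (8.30%), at an adjusted p under 0.05 by limma and a log2 difference over 1 in size. In bulk RNA, fewer cells of a type and less RNA per cell cannot be told apart. At the adjusted p alone 1901 genes were higher and 1173 lower, and the median difference over all genes was 0.19. The calls moved with the level of a gene. Of the 5010 genes whose mean level over the 4 libraries was 2 or more, 401 rose (8.00%) and 492 fell (9.82%), with a median of 0.03. Of the 4696 genes below that level, 1092 rose (23.3%) and 314 fell (6.69%), with a median of 0.46. Genes whose mean level lay between -2 and -1 rose in 37.2% and fell in 5.06% of cases, against 3.91% and 5.98% of genes at 6 or more. In 178 of the rises the gene was listed at 0 in both d4 libraries, and in 9 of the falls it was listed at 0 in both d8 libraries.

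**Figure D1:**
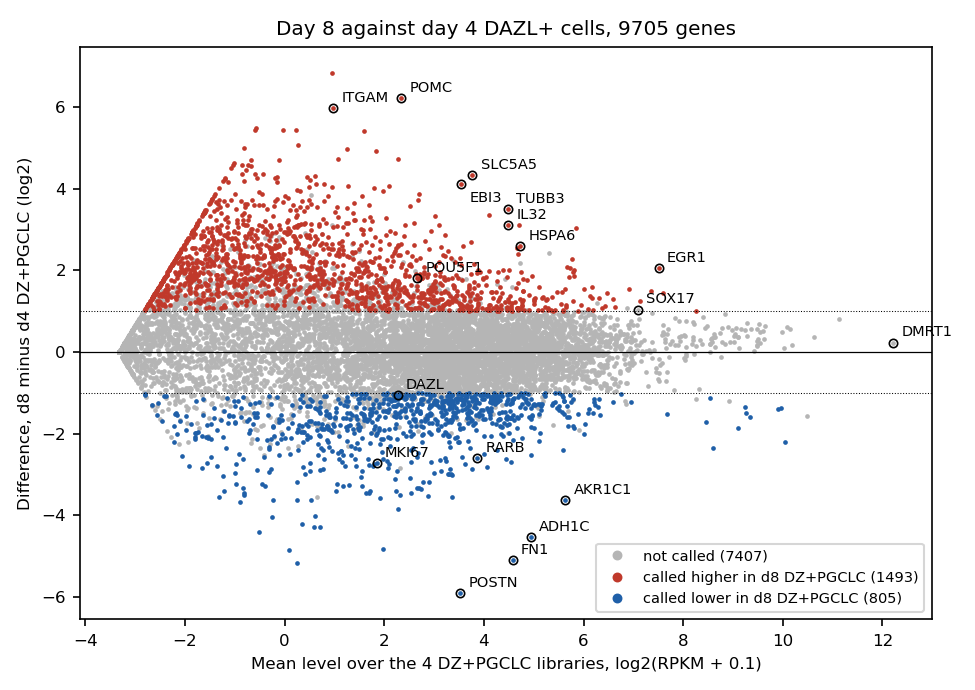
Each point is 1 gene, with its mean level over the 4 DZ+PGCLC libraries on the x axis and the difference, d8 minus d4, on the y axis (both log2). Of the genes drawn, 1493 were called higher and 805 lower (BCL2L1 is not drawn), the dotted lines mark differences of 1 and -1, and the rises crowd at the low levels on the left, where the straight edges are genes listed at 0 in a whole group.

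The calls also moved with the length of the gene. When the genes at level 2 or more were cut into 5 equal groups by span, the shortest (0.207 to 12.1 kb from the first to the last base of the gene) rose in 12.4% and fell in 4.19% of cases, with a median of 0.29. The longest (111 to 2299 kb) rose in 3.39% and fell in 20.9% of cases, with a median of -0.38, and the medians of the groups between them lay in order. Long genes were thus called lower more often than short ones at these levels. The share of the calls that went up depended on the scaling. It was 64.9% as deposited and 64.9% after rescaling without BCL2L1, but 48.3% after quantile normalization, which moved the median over all genes to 0.00, 54.4% after removing the trend with span (median -0.02) and 52.4% after removing the trend with level (median 0.03). Under quantile normalization 1252 genes fell. Counts of calls also depended on each library: without d8 replicate 1 the test called 912 genes higher and 482 lower, and without d8 replicate 2 it called 786 higher and 472 lower, with the lone library assumed to vary as the other groups did. Called with each of the 4 libraries left out in turn were 611 of the 1493 rises and 341 of the 806 falls. Below, a call that any of those fits lost through its p is given with the largest adjusted p among them, as its leave-one-out adjusted p. Of the calls that no such fit lost, those of TET1, ZNF703, SOX8 and HLA-E were lost with the trend of span removed, those of DCN and SOX1 under quantile normalization and with the trend of level removed, and those of VENTX, DPPA5, FKBP6, SKA1, CDH22, CSF3, TNF, OAS2 and ACTG2 with a pseudocount of 1. A pseudocount of 0.01 ended the calls of ADH1C and HSPA6, and a fit of the 4 DZ+PGCLC libraries alone those of CCL24, KIF4A and E2F7. Of the genes given below as not called, AMH, CCL2, CDH1, COL3A1, CYP26A1, CYP26B1, ID1, JUNB, KLF4, NANOG, REC8, SOX2 and VIM were called under at least 1 alternative.

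**Figure D2:**
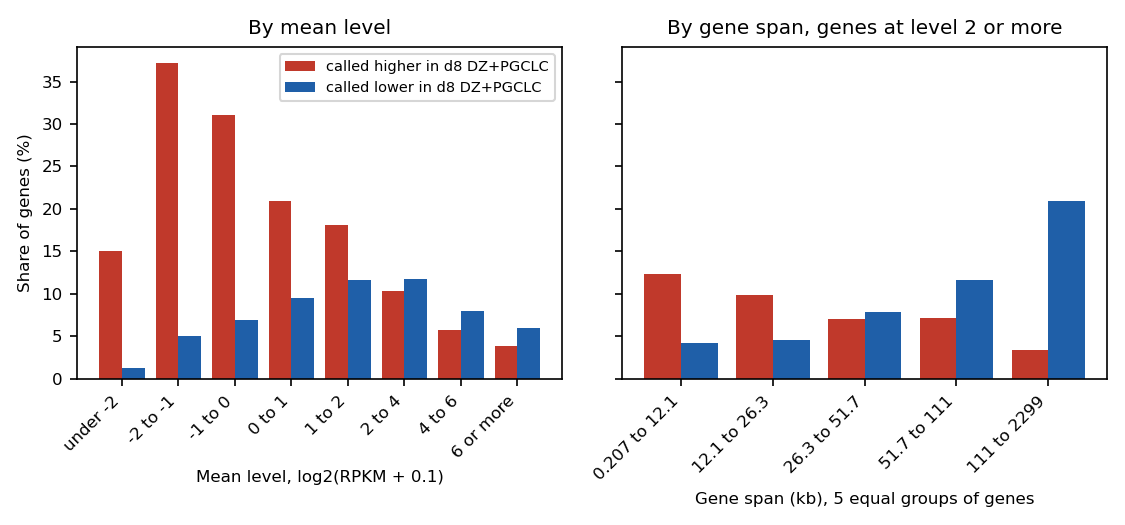
Share of genes (%) called higher (red) and lower (blue) in d8 DZ+PGCLC, by mean level in log2(RPKM + 0.1) on the left and by gene span in kb, over genes at level 2 or more, on the right. The share higher peaks at 37.2% between levels -2 and -1, and the share lower reaches 20.9% in the genes of the longest span.

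The 15 highest and 15 lowest differences were taken from the called genes at level 2 or more whose groups did not overlap (401 higher and 492 lower). POMC, which encodes the precursor of ACTH and of other peptide hormones (chr2:25160853-25168903), led the rises with 54.0 and 35.2 RPKM in d8 libraries, against 0.525 and 0.455 RPKM in d4 libraries (74.2-fold on the log2(RPKM + 0.1) scale, which understates the change of low genes, adjusted p = 0.000108). Its d8 levels were also above the means of 2.01, 1.64 and 1.30 in 4i ESC, N3+PGCLC and DM+PGCLC. SLC5A5, the sodium-iodide symporter, had 57.6 and 64.9 RPKM in d8 libraries, against 2.55 and 3.40 RPKM in d4 libraries (20.1-fold, adjusted p = 0.00137). EBI3, a subunit of the cytokines IL-27 and IL-35, had 56.4 and 41.9 RPKM at d8, against 2.87 and 2.56 RPKM at d4 (17.3-fold, adjusted p = 0.00134). Genes of neurons were among them. TUBB3, a neuronal beta-tubulin, had 71.0 and 79.4 RPKM in d8 libraries, against 8.00 and 5.33 RPKM in d4 libraries (11.3-fold). NEFM, a neurofilament subunit, had 24.2 and 25.3 RPKM at d8, against 1.54 and 1.63 RPKM at d4 (14.7-fold). NPTX2, a neuronal pentraxin, rose 11.9-fold. The mean level of TUBB3 in 4i ESC was 7.65, above both days.

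The other rises of this set were in SHISAL1 (26.6-fold), SLC5A9, a sodium-dependent sugar transporter (16.8-fold), STAP1, an adaptor protein of immune signalling (13.1-fold), FERMT3, the kindlin that activates integrins in blood cells (10.2-fold), CAVIN1, a coat protein of caveolae (10.1-fold), SLC6A12, a betaine and GABA transporter (9.72-fold), the chemokine CCL24 (8.93-fold), C20orf204 (8.64-fold) and PLP2 (8.62-fold). STAP1 was at 20.8 and 25.6 RPKM in d8 libraries, against 1.44 and 1.92 RPKM in d4 libraries, and at or near 0 in the 3 other groups, with means from -3.32 to -3.08. FERMT3 had 46.3 and 65.8 RPKM at d8, against 3.59 and 7.86 RPKM at d4. The calls of SLC5A9 and SLC6A12 were lost with a library left out, at a leave-one-out adjusted p of 0.104 and 0.129.

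Matrix and adhesion genes were among those that fell. POSTN, which encodes periostin, a matrix protein of mesenchymal cells (chr13:37562583-37598844), had 1.33 and 1.46 RPKM in d8 libraries, against 103 and 77.0 RPKM in d4 libraries, a fall of 59.7-fold (adjusted p = 0.000522). FN1, the gene of fibronectin, had 4.35 and 3.66 RPKM at d8, against 135 and 145 RPKM at d4, a fall of 34.2-fold (adjusted p = 0.0077). Without d8 replicate 1 or d8 replicate 2 the call of FN1 was lost, at a leave-one-out adjusted p of 0.0688 and differences from -5.22 to -4.98. GJA1, the gap junction protein connexin 43, had 1.31 and 2.06 RPKM in d8 libraries, against 18.4 and 19.8 RPKM in d4 libraries (adjusted p = 0.00331). FLRT3, a cell surface protein that binds FGF receptors, and HAPLN1, a link protein of the hyaluronan matrix, were lower by 11.5-fold and 10.1-fold, with leave-one-out adjusted p-values of 0.0851 and 0.18.

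A pair of enzymes that handle alcohols and aldehydes, retinoids among them, fell with them. ADH1C, an alcohol dehydrogenase, had 4.84 and 8.12 RPKM in d8 libraries, against 214 and 102 RPKM in d4 libraries (23.2-fold lower, adjusted p = 0.00292). AKR1C1, an aldo-keto reductase, had 11.5 and 17.1 RPKM at d8, against 246 and 122 RPKM at d4 (12.3-fold lower, adjusted p = 0.00232). ADH1C had means from -3.32 to -2.55 in the other groups, below both days. Each has close relatives in the genome, and only reads with a single place were kept. LEPR, the leptin receptor, fell 11.3-fold, SEMA3A, a secreted guidance protein, fell 10.1-fold, and CACNA1D, a calcium channel, fell 10.6-fold. LEPR (220908 bases), SEMA3A (536948) and CACNA1D (484771) lie in the group of longest span, where 20.9% of genes fell and 3.39% rose. So do PRKG1 (1307536) and PTPRD, named next. The part of span in these falls was not tested. ASB9, PRKG1, a cGMP-dependent kinase, and PTPRD, a receptor phosphatase of very long span (leave-one-out adjusted p = 0.0654), completed the set with GALNT15 (leave-one-out adjusted p = 0.131).

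**Figure D3:**
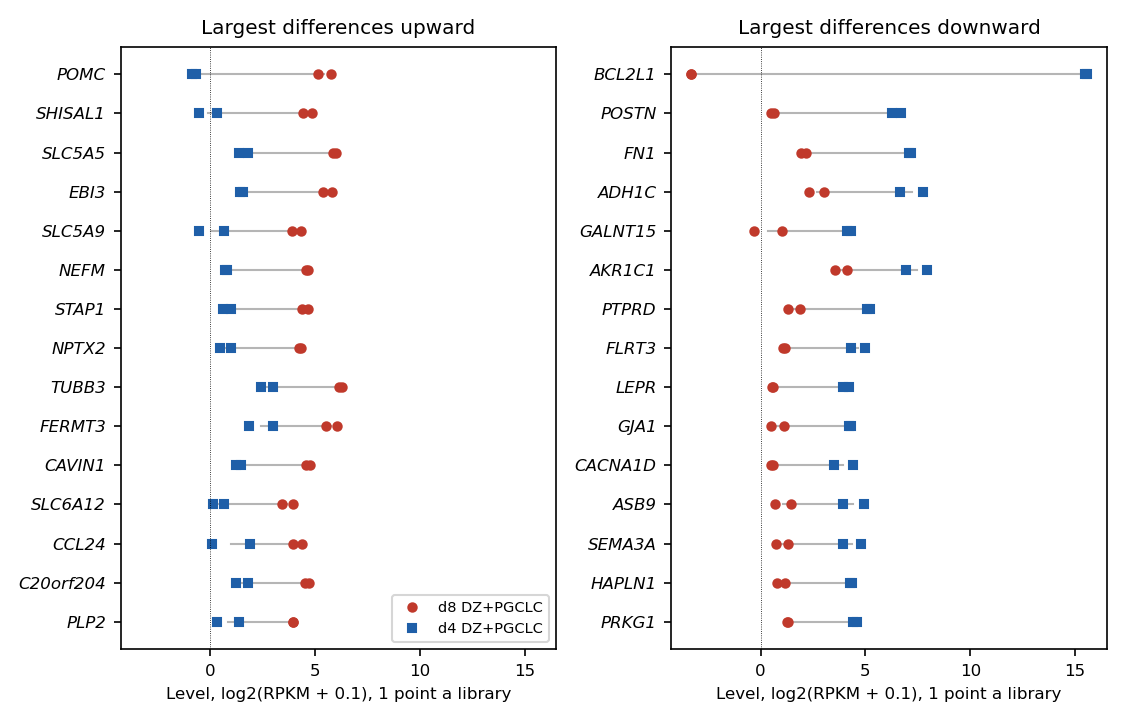
Level in log2(RPKM + 0.1) in each d8 DZ+PGCLC (red circles) and d4 DZ+PGCLC library (blue squares) for the 15 genes with the largest differences in each direction, with a grey line between the group means. That the groups do not overlap in these 30 genes was a condition of their choice. POMC stands at 5.76 and 5.14 in d8 libraries, against -0.68 and -0.85 in d4 libraries. BCL2L1 stands in the d8 libraries at the floor of -3.32, where it was listed at 0.

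The counts of gene lists below stand beside the shares over all genes, 15.4% higher and 8.30% lower, and beside those of genes under level 2 (23.3% higher, 6.69% lower), since many lists lie at low levels. A fit of the 6862 genes of the d8 list called 1223 higher and 678 lower. For the 2844 genes listed without the d8 libraries the counts were 276 and 137. Among those 2844 were 1 of 60 genes of G2 and M phase, 1 of 33 of S phase and 1 of 27 of the kinetochore list. None of the 8 genes of the metallothionein list was. The part of that choice of genes in the list counts was not tested. In several lists the members at level 2 or more had a median of the other sign. These were the lists of pluripotency (-0.70 over 14 genes), later germ cell genes (-0.96 over 3), meiosis (-0.23 over 5), the retinoic acid pathway (-0.38 over 21), HOX genes (-1.21 over 8), BMP response (-0.15 over 13), Wnt genes (-0.12 over 13), gonadal soma markers (-1.01 over 5), cilium genes (-0.48 over 10) and cyclins and CDKs (0.15 over 13).

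Early germ cell genes moved in both directions. Of 26 measured, 5 rose (19.2%) and 2 fell (7.69%), near the shares over all genes (15.4% and 8.30%), with a median of 0.39. The median was 0.09 under quantile normalization and not above 0 with the trend of span removed, and of the 10 members at level 2 or more 1 rose and 2 fell. PRDM1, the repressor that with SOX17 and TFAP2C specifies human germ cells, was at 2.30 and 3.24 in d8 libraries, against 4.42 and 4.01 in d4 libraries (difference -1.45, adjusted p = 0.037). Its call was lost with any of the 4 libraries left out (leave-one-out adjusted p = 0.228). TFAP2C was at 1.72 and 1.70 in d8 libraries, against 1.42 and 1.21 in d4 libraries (adjusted p = 0.312). KIT, the receptor of SCF, was at 0.18 and 0.09 at d8, against -0.52 and 0.07 at d4 (adjusted p = 0.381), with means of 5.18 and 5.73 in N3+PGCLC and DM+PGCLC. VENTX, a homeobox factor, rose to 0.50 and 0.81 in d8 libraries, against -1.13 and -1.45 in d4 libraries (1.95, adjusted p = 0.00406). PDPN, podoplanin, a surface marker of human germ cells, rose to 3.82 and 3.59 at d8, against 2.17 and 2.25 at d4 (1.49, adjusted p = 0.00554, leave-one-out adjusted p = 0.051). SOX15 (1.59), GATA4 (1.70) and ARID5B (-1.59), a chromatin factor, were called with leave-one-out adjusted p-values of 0.191, 0.199 and 0.14. ITGB3 was at -1.73 and -1.13 in the d8 libraries and listed at 0 in both d4 libraries (leave-one-out adjusted p = 0.137).

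Among 31 pluripotency genes 7 rose (22.6%) and 4 fell (12.9%), and the median of 0.07 turned negative under quantile normalization (-0.36) and with the trend of span (-0.31) or level (-0.03) removed. POU5F1, the gene of OCT4 and a marker of germ cells as well as of stem cells, was at 3.58 and 3.56 in d8 libraries, against 2.28 and 1.23 in d4 libraries (1.81, adjusted p = 0.00706). Both days were far under its mean of 8.43 in 4i ESC and 9.40 in N3+PGCLC. The call held without either d4 library and was lost without d8 replicate 1 or 2 (leave-one-out adjusted p = 0.0574). SOX2, its partner in stem cells that human germ cells lack, was at 2.16 and 2.20 in d8 libraries, against 3.94 and 3.50 in d4 libraries (-1.54, adjusted p = 0.0574), and it passed the test only under some settings, such as the rescaling without BCL2L1. DPPA4, a chromatin factor of pluripotent and germ cells, fell to 4.97 and 4.74 at d8, against 6.26 and 6.08 at d4 (-1.31, adjusted p = 0.00431), under every alternative run. SALL4, a zinc finger factor of the same cells, fell to 5.00 and 4.99 at d8, against 6.14 and 5.88 at d4 (-1.01), and was not called without d4 replicate 1, where the difference was -0.88, after median centring or with the trend of level removed.

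The remaining calls of that list were low or less stable. DPPA5 was listed at 0 in both d4 libraries, and in all 3 other groups, and stood at -1.68 and -0.91 in d8 libraries. PRDM14 (1.08), ZSCAN10 (1.27), KLF5 (1.32), VRTN (1.60) and FOXD3 (1.75) were called higher with leave-one-out adjusted p-values of 0.0654, 0.13, 0.224, 0.191 and 0.0886. FGF2, the growth factor of primed stem cell cultures, and SFRP2, a secreted Wnt inhibitor, were called lower at -1.16 and -2.15 with leave-one-out adjusted p-values of 0.11 and 0.122. KLF4 was at 3.04 and 2.36 in d8 libraries, against 1.85 and 1.42 in d4 libraries (adjusted p = 0.0616), and TFCP2L1, a factor of the naive state and of germ cells, at 3.55 and 3.27 at d8, against 3.71 and 4.01 at d4 (adjusted p = 0.196).

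Genes of the piRNA pathway, which makes small RNAs that guide PIWI proteins to transposon transcripts, were called higher in 4 of 17 cases (23.5%) and lower in none (0 were lower at an unadjusted p under 0.05). Over all genes 15.4% rose, and of genes under level 2, where 13 of the 17 lie, 23.3% did. The median of 0.92 stayed above 0 under the 6 scalings run (lowest 0.19), but 1 member was called lower under quantile normalization and with the trend of level removed, and none of the 4 members at level 2 or more was called. PNLDC1, the exonuclease that trims piRNA precursors, rose to 1.90 and 2.94 in d8 libraries, against -1.14 and -0.34 in d4 libraries (3.16, adjusted p = 0.00315), and DM+PGCLC held more of it, with a mean of 4.14. MOV10L1, the helicase that feeds precursors into the pathway, was at 0.26 and 0.25 at d8, against -2.33 and -2.20 at d4 (2.52, adjusted p = 0.0222, leave-one-out adjusted p = 0.109). Of 2 other factors of the pathway, FKBP6 had 0.355 and 0.402 RPKM and TDRD9 had 0.109 and 0.261 RPKM in d8 libraries, and both were listed at 0 in both d4 libraries (leave-one-out adjusted p = 0.107 for TDRD9). The PIWI proteins themselves did not pass the test. PIWIL2 was at 1.71 and 1.92 in d8 libraries, against 1.02 and 0.52 in d4 libraries (adjusted p = 0.121), PIWIL4 at 0.04 and -0.10 at d8, against -1.15 and -0.81 at d4 (adjusted p = 0.119), and PIWIL1 at 0.20 and -1.66 at d8, against -1.74 and -1.37 at d4 (adjusted p = 0.489). For PIWIL2 both days lay above the means of the other groups, from -2.24 to -1.17.

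Later germ cell genes rose in 5 of 20 cases (25.0%) and fell in 2 (10.0%), against 23.3% and 6.69% of all genes under level 2. The median of 0.44 was -0.16 under quantile normalization and -0.04 with the trend of level removed. Of the 3 members at level 2 or more none rose and 1 fell. Among the rises, FKBP6 and TDRD9 are also counted in the piRNA list, and EGR4 with the immediate early genes below. PRAME, an antigen of the testis, was at 0.17 and -0.53 in d8 libraries and listed at 0 in both d4 libraries (leave-one-out adjusted p = 0.164), and SOHLH1, a factor of the spermatogonia of mice, was at -2.38 and -0.93 in d8 libraries and likewise listed at 0 at d4 (leave-one-out adjusted p = 0.0746). DDX25, a helicase of round spermatids in mice, fell to -0.24 and 0.21 in d8 libraries, against 1.80 and 2.06 in d4 libraries (-1.95, adjusted p = 0.00738, leave-one-out adjusted p = 0.0546). Of 23 meiotic genes, SPATA22 (1.74) and MSH4 (1.14) were called higher (8.7%) and none lower (3 were lower at an unadjusted p under 0.05), with leave-one-out adjusted p-values of 0.194 and 0.0824. REC8, the meiotic cohesin, was at 5.00 and 5.04 at d8, against 6.00 and 5.96 at d4, a difference of -0.96 that stayed under the size threshold (adjusted p = 0.0102). STRA8, the retinoic acid-responsive entry factor of meiosis, was listed at 0 in all 4 libraries.

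In the DNA methylation machinery 3 of 18 genes rose and 2 fell, with a median of 0.06 (-0.21 with the trend of span removed). TET1, which oxidizes 5-methylcytosine, fell to 3.08 and 3.09 in d8 libraries, against 4.22 and 4.19 in d4 libraries (-1.12, adjusted p = 0.00362), a call lost only with the trend of span removed among the alternatives run. TET2 and TET3 were not called, at differences of 0.08 and 0.25. UHRF2, a reader of modified cytosine, fell to 3.81 and 3.84 at d8, against 5.00 and 5.17 at d4 (-1.26, adjusted p = 0.000917). APOBEC3B, a cytidine deaminase, rose to 1.95 and 1.89 at d8, against -0.50 and -1.27 at d4 (2.80, adjusted p = 0.00214), and ZBTB38, a reader of methylated DNA, to 4.32 and 4.46 at d8, against 2.81 and 3.04 at d4 (1.47). DNMT3B, the de novo methyltransferase, was at 1.83 and 1.54 at d8, against 1.59 and 1.64 at d4 (adjusted p = 0.881), and UHRF1 at 3.70 and 3.64 at d8, against 3.93 and 3.56 at d4 (adjusted p = 0.835). None of 12 genes of the machinery of the repressive histone marks H3K9 and H3K27 methylation was called by limma (median -0.30), and 1 was higher and 4 lower at an unadjusted p under 0.05. Under alternatives, 1 was called lower after rescaling without BCL2L1, 3 under quantile normalization, 2 with the trend of span removed and 1 with the trend of level removed.

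Genes of cell division stood lower at day 8. Of 60 genes of the G2 and M phases 23 fell (38.3%, against 8.30% of all genes) and 1 rose, 52 had a negative difference, and the median was -0.69, between -0.97 and -0.66 under the scalings run. Only 1 of the 60 was listed without the d8 libraries. MKI67, the proliferation antigen Ki-67, was at 0.90 and 0.07 in d8 libraries, against 2.96 and 3.46 in d4 libraries (-2.72, SE 0.28, adjusted p = 0.001). TTK, a kinase of the spindle checkpoint, was at 1.73 and 1.44 at d8, against 4.44 and 4.13 at d4 (-2.70, adjusted p = 0.00038), and AURKB, a kinase of chromosome segregation, at 1.46 and 0.91 at d8, against 3.99 and 3.77 at d4 (-2.69, adjusted p = 0.000648). The groups were far apart in each. CDCA3, a cofactor of the ligase that ends mitosis, was at 0.11 and 0.09 in d8 libraries, against 2.78 and 2.66 in d4 libraries (-2.62), KIF4A, a mitotic motor, at 0.57 and -0.43 at d8, against 2.23 and 2.02 at d4 (-2.05), and TOP2A, a topoisomerase of dividing cells, at 1.63 and 1.63 at d8, against 3.47 and 3.39 at d4 (-1.80). FOXM1, the transcription factor of these genes, fell to 1.84 and 0.97 at d8, against 3.62 and 3.31 at d4 (-2.06, adjusted p = 0.00228), and CDK1, the kinase that drives mitosis, to 0.69 and 1.18 at d8, against 2.77 and 2.90 at d4 (-1.90, adjusted p = 0.00446). Not all of the programme moved. CCNB1, the cyclin partner of CDK1, was at 4.27 and 4.43 in d8 libraries, against 4.54 and 4.48 in d4 libraries (adjusted p = 0.464), PLK1 at 3.69 and 3.85 at d8, against 3.65 and 3.87 at d4 (adjusted p = 0.991), and CDC20 at 3.94 and 3.91 at d8, against 4.69 and 3.81 at d4 (adjusted p = 0.415). HMMR was the member that rose, to 2.83 and 3.57 at d8, against 1.86 and 1.83 at d4, and lost its call without d8 replicate 2 (difference 0.98).

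Many promoters of mitotic genes carry a cell cycle genes homology region and CCAAT boxes, through which they are repressed and activated by the DREAM, MuvB and NF-Y complexes. A window of 300 bases around the gene start, most of it upstream, was available from RefSeq (GRCh38.p14) for 50 of the 60 genes. The letters TTTGAA, searched on both strands, were present in 35 of those 50 promoters (70.0%), against 15.4% of all 27305 promoters, and CCAAT, which is free to overlap with it, in 39 (78.0%), against 35.7%. The members that fell and the others held them in like shares. TTTGAA was in 13 of 18 promoters of genes that fell (72.2%) and in 22 of 32 of the others (68.8%), and CCAAT in 15 (83.3%) and 24 (75.0%). A match of letters is a description and not a bound site. The promoters of 3 genes that fell are shown to let the place of these letters near the start be seen, 5′ to 3′ on the strand of the gene, with TTTGAA and CCAAT, or their reverse complements, in capitals. They are MKI67 at chr10:128126374-128126673 (minus strand), CDCA3 at chr12:6851237-6851536 (minus strand) and KIF4A at chrX:70289854-70290153 (plus strand).
MKI67: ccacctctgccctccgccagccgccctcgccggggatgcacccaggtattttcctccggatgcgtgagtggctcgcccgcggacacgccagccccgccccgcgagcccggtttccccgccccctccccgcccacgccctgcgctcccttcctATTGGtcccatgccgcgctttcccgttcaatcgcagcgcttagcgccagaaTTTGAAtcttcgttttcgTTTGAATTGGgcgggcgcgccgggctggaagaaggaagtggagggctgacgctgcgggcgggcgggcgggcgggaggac
CDCA3: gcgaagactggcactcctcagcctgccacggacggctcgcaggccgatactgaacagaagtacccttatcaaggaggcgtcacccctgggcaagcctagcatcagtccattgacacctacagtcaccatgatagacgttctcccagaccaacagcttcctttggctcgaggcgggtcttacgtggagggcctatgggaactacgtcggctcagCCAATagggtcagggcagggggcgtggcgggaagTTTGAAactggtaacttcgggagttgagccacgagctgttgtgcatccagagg
KIF4A: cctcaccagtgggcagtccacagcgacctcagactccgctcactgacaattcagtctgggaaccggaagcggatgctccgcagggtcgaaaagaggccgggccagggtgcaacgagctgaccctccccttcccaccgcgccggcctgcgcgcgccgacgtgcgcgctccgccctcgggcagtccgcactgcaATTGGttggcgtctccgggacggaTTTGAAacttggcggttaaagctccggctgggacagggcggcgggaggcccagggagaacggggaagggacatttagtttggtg
In each of them a CCAAT, in MKI67 and KIF4A as its reverse complement, lies upstream of a TTTGAA, and in MKI67 the other CCAAT shares a base with a TTTGAA.

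The genes of DNA replication and S phase fell in 6 of 33 cases (18.2%), rose in none (1 was higher at an unadjusted p under 0.05) and had a negative difference in 26, with a median of -0.41 (from -0.72 to -0.35 under the scalings run). RRM1 and RRM2, the subunits of ribonucleotide reductase, which makes the building blocks of DNA, both fell. RRM1 was at 3.65 and 3.24 in d8 libraries, against 5.37 and 4.85 in d4 libraries (-1.66), and RRM2 at 2.66 and 2.35 in d8 libraries, against 3.82 and 3.81 in d4 libraries (-1.31). ORC1, a subunit of the origin recognition complex, fell to 2.24 and 2.30 at d8, against 3.76 and 3.37 at d4 (-1.30). MCM3, of the replicative helicase, was lower at -1.15, and at -0.99 without d4 replicate 1, and EXO1, an exonuclease of repair, at -1.13 (leave-one-out adjusted p = 0.118). PCNA, the sliding clamp, was at 4.78 and 5.20 at d8, against 5.35 and 4.96 at d4 (adjusted p = 0.648). In the kinetochore list 7 of 27 genes fell (25.9%, against 8.30% of all genes) and none rose, with 3 higher at an unadjusted p under 0.05. The median was -0.23, and of the 16 members at level 2 or more 1 fell, with a median of -0.04. Under median centring, quantile normalization and with the trend of level removed, 1 member was called higher. The members of the NDC80 complex, which ties the kinetochore to microtubules, were among the falls, and NUF2 and NDC80 are also counted among those of G2 and M phase. NUF2 (-1.98), SPC24 (-1.80, leave-one-out adjusted p = 0.0563) and SPC25 (-2.12, leave-one-out adjusted p = 0.102) fell, and NDC80 was at 0.96 and 0.25 in d8 libraries, against 2.65 and 2.23 in d4 libraries (-1.84, adjusted p = 0.00262). SKA1 (-1.53) and OIP5 (-1.48, leave-one-out adjusted p = 0.151) fell as well.

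The cyclins, CDKs and E2F factors fell in 7 of 21 cases (33.3%) and rose in 2 (9.52%). Of those falls, FOXM1, CDK1, CCNA2 and CCNB2 are also counted in the list of G2 and M phase. CCNA1, the cyclin A of the germline, rose to 3.31 and 3.63 in d8 libraries, against -0.20 and -0.48 in d4 libraries (3.81, SE 0.37, adjusted p = 0.000913), and the 3 other groups had means from -1.22 to 0.58. CCNA2, the cyclin A of other dividing cells, was at 0.82 and 1.03 in d8 libraries, against 2.01 and 1.88 in d4 libraries (-1.02, adjusted p = 0.012, leave-one-out adjusted p = 0.0716). E2F7 (-1.56), E2F2 (-2.13, leave-one-out adjusted p = 0.0963) and MYBL2, a partner of MuvB (-1.34, leave-one-out adjusted p = 0.0533), fell, and CCND3, a D-type cyclin, rose by 1.05 and by 0.93 without d8 replicate 1. The inhibitors of these kinases went both ways. CDKN2D, which encodes p19, an inhibitor of CDK4 and CDK6, rose to 2.81 and 2.57 at d8, against 0.92 and 0.61 at d4 (1.92, adjusted p = 0.00447). CDKN1A, which encodes p21, was at 6.97 and 6.99 in d8 libraries, against 5.69 and 5.61 in d4 libraries (1.33, adjusted p = 0.0368, leave-one-out adjusted p = 0.164). GAS1, a growth arrest gene, fell to 5.09 and 4.91 at d8, against 7.27 and 6.74 at d4 (-2.01), and CDKN3 was lower at -1.21 (leave-one-out adjusted p = 0.168). CDKN1C was at 3.82 and 3.97 at d8, against 2.83 and 1.68 at d4 (adjusted p = 0.176), and CDKN2A at 4.39 and 4.68 at d8, against 4.77 and 4.38 at d4 (adjusted p = 0.978).

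The retinoic acid pathway, driven in both groups by added retinoic acid, was mixed. Of 35 genes 2 rose and 3 fell, and the median of 0.26 was between -0.20 and -0.15 under quantile normalization and with either trend removed. RARB, a receptor that is itself a target of retinoic acid, fell to 2.52 and 2.60 in d8 libraries, against 5.36 and 4.95 in d4 libraries (-2.59, SE 0.18, adjusted p = 0.000326), and stood at 4.94 in DM+PGCLC. CYP26A1, the retinoic acid-degrading enzyme and another target, was at 3.58 and 3.50 at d8, against 5.22 and 4.57 at d4 (-1.35, adjusted p = 0.0788), while CYP26B1, its relative, was at 2.87 and 1.99 at d8, against 1.17 and 1.44 at d4 (1.13, adjusted p = 0.0526). Neither passed the test here, but CYP26A1 was called lower in a fit of the 4 DZ+PGCLC libraries alone (adjusted p = 0.0438), under quantile normalization and with the trend of span removed, and CYP26B1 higher over the genes of the d8 list (adjusted p = 0.0457) and with no intensity trend (adjusted p = 0.0333). LRAT, which stores retinol as esters, was lower at -2.43 (leave-one-out adjusted p = 0.0849) and NR6A1, an orphan receptor of germ cells, at -1.19 (leave-one-out adjusted p = 0.0793). ALDH1A3, which makes retinoic acid, rose to 0.89 and 1.16 at d8, against -0.84 and -0.80 at d4 (1.85, leave-one-out adjusted p = 0.0529), and ZNF703 to 3.49 and 3.41 at d8, against 2.05 and 1.97 at d4 (1.44, adjusted p = 0.00096). Of 32 HOX genes 4 rose (12.5%) and 1 fell. HOXA11 rose to 0.19 and 1.07 at d8, against -3.32 and -2.79 at d4 (leave-one-out adjusted p = 0.0661), HOXC9 was at 0.17 and 0.50 in d8 libraries and listed at 0 in both d4 libraries, HOXA6 (2.57) and HOXD9 (1.54) were higher with leave-one-out adjusted p-values of 0.162 and 0.108, and the more anterior HOXA3 was lower at -1.83 (leave-one-out adjusted p = 0.208).

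Activin, BMP and Wnt genes were called at shares below those over all genes (15.4% higher, 8.30% lower). In the activin and nodal list 3 of 29 rose (10.3%) and 2 fell (6.9%), with a median of 0.23 (-0.11 under quantile normalization). PMEPA1, a SMAD-induced inhibitor of the pathway, rose to 3.81 and 3.53 in d8 libraries, against 1.48 and 2.03 in d4 libraries (1.91, adjusted p = 0.00171), and LEFTY1, a secreted nodal antagonist, to 1.19 and 1.31 at d8, against -2.06 and -1.56 at d4 (3.06, leave-one-out adjusted p = 0.0879). FST, follistatin, which traps activin, fell to 2.86 and 2.36 at d8, against 5.07 and 4.48 at d4 (-2.17, leave-one-out adjusted p = 0.131), and LTBP1, which holds latent TGF-beta in the matrix, to 2.84 and 3.03 at d8, against 4.53 and 4.67 at d4 (-1.67, adjusted p = 0.0024). NODAL and LEFTY2 were not called. Of 27 BMP response genes DLX3 (1.57) and ATOH8 (1.49) were higher and SMAD6, an inhibitor of the pathway, lower (-1.49), with leave-one-out adjusted p-values of 0.149, 0.0959 and 0.195, and the ID genes 1 to 4 were not called. Of 39 Wnt genes 4 were called higher, RSPO4 (1.88), WNT9A (1.75), WNT1 (1.07) and WNT10A, which was listed at 0 in both d4 libraries, and SFRP2 lower. All 5 calls were lost with some library left out, at leave-one-out adjusted p-values of 0.0919, 0.127 and 0.136 for RSPO4, WNT9A and WNT10A, while WNT1 was under the size threshold (0.96), and the targets AXIN2 (0.42), SP5 (-0.24) and LEF1 (-0.20) were not called.

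Glucocorticoid-responsive genes bear on the dexamethasone that both groups received. Of 26 measured, 8 rose (30.8%) and 2 fell (7.69%), with a median of 0.51 that stayed above 0 under the scalings run. The rises include MT2A and MT1X, which are counted again with the metallothioneins below. KLF9, a direct target of the glucocorticoid receptor, rose to 1.61 and 1.65 in d8 libraries, against -0.04 and -0.05 in d4 libraries (1.67, adjusted p = 0.00892), and CRISPLD2 to 2.11 and 2.30 at d8, against -0.35 and -1.05 at d4 (2.90, adjusted p = 0.00315). GADD45B (2.55), SGK1 (1.25), ERRFI1 (1.24) and TAT (1.45) were higher too, with leave-one-out adjusted p-values of 0.0784, 0.158, 0.193 and 0.0963, and MAOA (-1.80) and SLC19A2 (-1.03) lower, with 0.15 and 0.093. The well-known receptor targets FKBP5, TSC22D3 and PER1 were not called. FKBP5 was at 2.78 and 2.82 in d8 libraries, against 2.93 and 2.43 in d4 libraries, TSC22D3 at 4.36 and 4.38 at d8, against 4.82 and 4.17 at d4, and PER1 at 5.58 and 5.27 at d8, against 4.87 and 5.03 at d4 (adjusted p = 0.813, 0.829 and 0.115).

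Metallothioneins, small proteins that bind zinc and copper and are induced by metals and by glucocorticoids, were higher at day 8. Of the 8 genes in the list, which includes their activator MTF1, the zinc exporter SLC30A1 and the zinc transporter SLC39A10, 6 rose (75.0%) and none fell (1 was lower at an unadjusted p under 0.05), with a median of 1.86 (from 1.16 to 1.94 under the scalings run). MTF1 was 1 of the 6, and the others were metallothioneins. MT1X was at 4.71 and 4.97 in d8 libraries, against 3.03 and 2.78 in d4 libraries (1.94, SE 0.19, adjusted p = 0.000921). MT2A was at 4.53 and 4.30 at d8, against 1.97 and 1.74 at d4 (2.56, adjusted p = 0.00704, leave-one-out adjusted p = 0.0635), and MT1E at 3.05 and 3.08 at d8, against -0.44 and -0.22 at d4 (3.40, adjusted p = 0.00203). MT1F was at 4.16 and 4.20 at d8, against 2.84 and 1.94 at d4 (1.79, leave-one-out adjusted p = 0.0606). MT1G was at 2.33 and 1.90 in d8 libraries and listed at 0 in both d4 libraries. MTF1 itself was higher at 1.02 (leave-one-out adjusted p = 0.0553, and 0.90 without one of the libraries). The d8 level of MT2A was below those of the other groups, which had means of 6.36 in 4i ESC, 7.82 in N3+PGCLC and 7.33 in DM+PGCLC. The metallothionein genes are close copies of each other in a cluster on chromosome 16, and reads with more than 1 place were dropped.

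Metallothionein promoters bind MTF1 at metal response elements with the core TGCACNC or TGCGCNC. A window of the promoter was available for 5 genes of the list, of which only MT1X and MT2A are metallothioneins, with MTF1, SLC30A1 and SLC39A10 as the others. The core, searched on both strands, was present in 3 of the 5 (60.0%), MT1X, MT2A and SLC30A1, against 29.3% of all 27305 promoters. The windows of MT2A and MT1X are shown because both genes rose and hold several cores, 8 in MT2A at chr16:56608334-56608633 and 4 in MT1X at chr16:56682220-56682519 (plus strand, GRCh38.p14, RefSeq), in capitals.
MT2A: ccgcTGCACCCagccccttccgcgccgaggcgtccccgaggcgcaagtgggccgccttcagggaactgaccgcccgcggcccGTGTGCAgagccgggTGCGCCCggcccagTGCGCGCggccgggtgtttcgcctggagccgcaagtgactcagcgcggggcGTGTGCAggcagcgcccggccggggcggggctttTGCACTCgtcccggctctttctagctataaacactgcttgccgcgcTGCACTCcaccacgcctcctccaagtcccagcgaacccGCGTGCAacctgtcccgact
MT1X: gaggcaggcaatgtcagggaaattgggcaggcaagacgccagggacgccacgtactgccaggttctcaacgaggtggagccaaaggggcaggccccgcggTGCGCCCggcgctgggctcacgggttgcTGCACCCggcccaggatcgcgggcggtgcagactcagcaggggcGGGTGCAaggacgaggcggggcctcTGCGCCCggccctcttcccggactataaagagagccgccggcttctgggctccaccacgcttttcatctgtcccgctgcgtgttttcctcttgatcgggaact
The promoter of MTF1 held none of these letters in its window.

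Immediate early genes, the transcription factors and effectors that cells switch on within minutes of a signal, rose in 6 of 23 cases (26.1%) and fell in none, with 19 positive differences and a median of 0.82 (from 0.44 to 0.94 under the scalings run). EGR1 was at 8.74 and 8.35 in d8 libraries, against 6.60 and 6.37 in d4 libraries (2.06, adjusted p = 0.0124). EGR3 was at 3.58 and 3.32 at d8, against 1.56 and 0.61 at d4 (2.37), EGR4 at 0.35 and -0.45 at d8, against -3.32 and -2.43 at d4 (2.83), and ARC, a neuronal member, at 6.00 and 5.80 at d8, against 4.05 and 4.02 at d4 (1.86). FOSL2 (1.77) and KLF6 (1.39) rose as well. Each of these 6 calls was lost in some fit with a library left out, with leave-one-out adjusted p-values of 0.0984 (EGR1), 0.0915 (EGR3), 0.0685 (EGR4), 0.0986 (ARC), 0.203 (FOSL2) and 0.187 (KLF6). The difference of EGR1 stayed between 1.86 and 2.26 in those fits. FOSB (0.66), JUN (-0.05), JUNB (0.97) and ATF3 (0.82) were not called, and MYC had 0.399 and 0.437 RPKM in d8 libraries, against 1.02 and 0.16 RPKM in d4 libraries (adjusted p = 0.977). Of 17 ERK feedback genes 3 rose and 1 fell. DUSP5, a phosphatase of ERK, rose to 3.65 and 3.69 at d8, against 0.70 and 1.34 at d4 (2.65, adjusted p = 0.00203), SPSB1 to 3.95 and 3.95 at d8, against 2.38 and 2.15 at d4 (1.68), and SPRY4, a feedback inhibitor of receptor signalling, was higher at 1.61 (leave-one-out adjusted p = 0.104). ETV1, an ETS factor, fell to 0.59 and 1.32 at d8, against 3.32 and 3.21 at d4 (-2.31, adjusted p = 0.00225). DUSP6 (-0.69) and SPRY2 (0.13) were not called.

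Among chaperones 3 of 22 rose (13.6%, against 15.4% of all genes) and none fell, with 0 lower at an unadjusted p under 0.05. HSPA6, a strictly stress-inducible HSP70, was at 6.00 and 6.05 in d8 libraries, against 3.01 and 3.86 in d4 libraries (2.59, adjusted p = 0.00446), and its means in the 3 other groups were from -3.12 to -3.01. BAG3, a cofactor of HSP70, rose to 6.67 and 6.75 at d8, against 4.40 and 4.85 at d4 (2.08, adjusted p = 0.00144), and HSPA2, the HSP70 of the testis, to 5.05 and 5.23 at d8, against 3.27 and 3.53 at d4 (1.75). SQSTM1, the autophagy receptor p62, which works with BAG3 in protein clearance, rose to 7.95 and 7.57 at d8, against 6.49 and 6.54 at d4 (1.24, adjusted p = 0.00203), and the lysosomal sialidase NEU1 to 4.79 and 4.63 at d8, against 3.13 and 3.03 at d4 (1.63). CTSC, a lysosomal protease, fell to 3.31 and 3.72 at d8, against 5.66 and 5.34 at d4 (-1.99). SQSTM1, NEU1 and CTSC belong to a list of 35 lysosome and autophagy genes, of which 3 rose (8.57%) and 2 fell (5.71%). Over all genes 15.4% rose and 8.30% fell. In the integrated stress response list 2 of 27 genes rose and 2 fell (median 0.02), and of 24 p53 targets TIGAR (1.34, leave-one-out adjusted p = 0.144) and CDKN1A were higher and SESN1 lower (-1.53, adjusted p = 0.00264), while MDM2 was at 6.84 and 6.95 at d8, against 6.86 and 7.16 at d4 (adjusted p = 0.633).

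Of the BCL2 family and its neighbours 3 of 25 rose and 3 fell. BCL2L11, the pro-apoptotic BIM, was at 4.00 and 3.95 in d8 libraries, against 2.17 and 2.49 in d4 libraries (1.65, adjusted p = 0.00475), and BCL2L12 at 6.41 and 6.40 at d8, against 5.00 and 4.72 at d4 (1.55, adjusted p = 0.000744). APAF1, the core of the apoptosome, fell to 2.81 and 3.00 at d8, against 3.91 and 4.12 at d4 (-1.12), BIRC5, which encodes survivin and is also a mitotic gene, was lower at -1.29 (leave-one-out adjusted p = 0.0577), and CFLAR, an inhibitor of caspase-8, at -1.03 (leave-one-out adjusted p = 0.128). BAX (0.20) and BCL2 (0.77) were not called.

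Extracellular matrix genes fell in 9 of 52 cases (17.3%) and rose in 5 (9.62%), with a median of -0.26 (from -0.51 to -0.23 under the scalings run). VCAN, the large proteoglycan versican, fell to 2.77 and 2.53 in d8 libraries, against 5.34 and 5.59 in d4 libraries (-2.81, adjusted p = 0.00143), COL4A6, a basement membrane collagen, to -0.06 and -0.08 at d8, against 2.25 and 2.44 at d4 (-2.42), COL9A1 to -2.81 and -2.20 at d8, against 0.87 and 0.79 at d4 (-3.33) and COL14A1 to -1.37 and -1.58 at d8, against 0.68 and 1.01 at d4 (-2.32). NCAN, a brain proteoglycan, was among the rises. In the list of fibroblast and stroma markers 5 of 23 fell (21.7%), POSTN, FN1, COL1A2 (-2.74, leave-one-out adjusted p = 0.101), COL5A2 (-2.62, leave-one-out adjusted p = 0.163) and FBLN1 (-1.01, and -0.86 without one library), and 1 rose, DCN, which was at -2.11 and -1.84 in d8 libraries and listed at 0 in both d4 libraries. The summed RPKM of that list was 388 and 339 in d8 libraries, against 788 and 775 in d4 libraries. COL3A1 (-3.55, adjusted p = 0.0503) and VIM (-1.20, adjusted p = 0.0501) missed the threshold here, although COL3A1 was called lower in a fit of the 4 DZ+PGCLC libraries alone (adjusted p = 0.0224) and under median centring, and VIM after rescaling without BCL2L1 (adjusted p = 0.0401) and under median centring. COL1A1 was at 5.40 and 5.20 at d8, against 5.21 and 5.74 at d4 (adjusted p = 0.88). MGP was listed at 0 in all 4 libraries.

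Keratin and junction genes rose more often than they fell. Of 35 keratin and junction genes 11 rose (31.4%) and 2 fell, with a median of 0.91 (from 0.48 to 0.94 under the scalings run). KRT7, a keratin of simple epithelia, rose to 1.41 and 0.99 in d8 libraries, against -1.71 and -3.32 in d4 libraries (3.72, adjusted p = 0.00262), and CLDN9, a claudin, to 1.86 and 1.50 at d8, against -2.04 and -1.09 at d4 (3.24, adjusted p = 0.00221). KRT17 (2.62) and PKP3, plakophilin 3 (2.34), rose with leave-one-out adjusted p-values of 0.0723 and 0.0971. KRT18 was at 6.94 and 6.96 at d8, against 5.73 and 5.00 at d4 (1.59, leave-one-out adjusted p = 0.0966). GJA1, described above, and DSC2, desmocollin 2 (-1.13, leave-one-out adjusted p = 0.0638), fell. CDH2, N-cadherin, fell to 2.38 and 1.91 at d8, against 3.62 and 3.78 at d4 (-1.55, adjusted p = 0.00234), whereas CDH1, E-cadherin, was at 1.14 and 2.79 at d8, against -0.50 and 0.96 at d4 (1.74, adjusted p = 0.0709), and EPCAM at 4.90 and 5.10 at d8, against 4.57 and 4.55 at d4 (adjusted p = 0.06).

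In the list of cadherins and integrins 10 of 40 rose (25.0%) and 4 fell (10.0%), with a median of 0.12 that was negative under quantile normalization (-0.21) and with the trend of level removed (-0.13). ITGAM, the integrin CD11b, was at 3.89 and 4.02 in d8 libraries, against -1.81 and -2.22 in d4 libraries (5.97, SE 0.73, adjusted p = 0.00177), and ITGAX, CD11c, at 2.89 and 2.99 at d8, against -2.71 and -2.30 at d4 (5.44, SE 0.49, adjusted p = 0.000702). Both lie next to each other on chromosome 16 and were called under every alternative run. Their partner chain ITGB2 was at -0.05 and -1.09 in d8 libraries, against -0.12 and -1.33 in d4 libraries (adjusted p = 0.881). CDH22 (2.53) and CDH15 (2.28) rose as well, ITGB7 was higher at 1.87 (leave-one-out adjusted p = 0.163) and CDH7 lower at -2.01 (leave-one-out adjusted p = 0.198).

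Of 44 cytokine and inflammatory genes 12 rose (27.3%) and 4 fell (9.09%), with a median of 0.38 (-0.01 under quantile normalization). IL32, a cytokine of epithelia and leukocytes, was at 6.14 and 5.94 in d8 libraries, against 2.73 and 3.15 in d4 libraries (3.10, SE 0.26, adjusted p = 0.000566), and its means were 6.19 in 4i ESC, 3.23 in N3+PGCLC and 6.30 in DM+PGCLC. CXCL8, interleukin 8, rose to 3.45 and 4.03 at d8, against -2.38 and -0.10 at d4 (4.98, adjusted p = 0.00259), IL11 to 1.47 and 1.73 at d8, against -1.58 and -0.78 at d4 (2.78) and CSF3, the growth factor G-CSF, to 0.73 and -0.11 at d8, against -2.42 and -2.49 at d4 (2.76). IL1A was at 1.49 and 0.86 in the d8 libraries and listed at 0 in both d4 libraries (leave-one-out adjusted p = 0.0501). TNF was at -0.49 and 0.31 in the d8 libraries and listed at 0 in both d4 libraries. The complement gene C3 rose to 2.91 and 2.48 at d8, against 0.69 and 0.48 at d4 (2.11). NFKB2, a subunit of NF-kB, was at 6.77 and 6.47 at d8, against 5.39 and 5.74 at d4 (1.06, leave-one-out adjusted p = 0.11). VCAM1, an adhesion molecule, went the other way, to -0.57 and -0.37 at d8, against 3.01 and 2.61 at d4 (-3.28, adjusted p = 0.00203). CCL2 was listed at 0 in both d8 libraries and stood at -0.80 and -1.98 in d4 libraries, IL6 was at 0.78 and 0.76 at d8, against -0.85 and -0.26 at d4 (adjusted p = 0.12), and CXCL1 at 3.75 and 3.81 at d8, against 4.38 and 4.26 at d4 (adjusted p = 0.616). Of 30 interferon response genes 6 rose (20.0%) and none fell (1 was lower at an unadjusted p under 0.05), the rises among them HLA-E at 4.14 and 3.85 at d8, against 2.59 and 2.52 at d4 (1.44), and OAS2 at -0.97 and -1.11 at d8, against -3.11 and -3.32 at d4 (2.18).

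**Figure D4:**
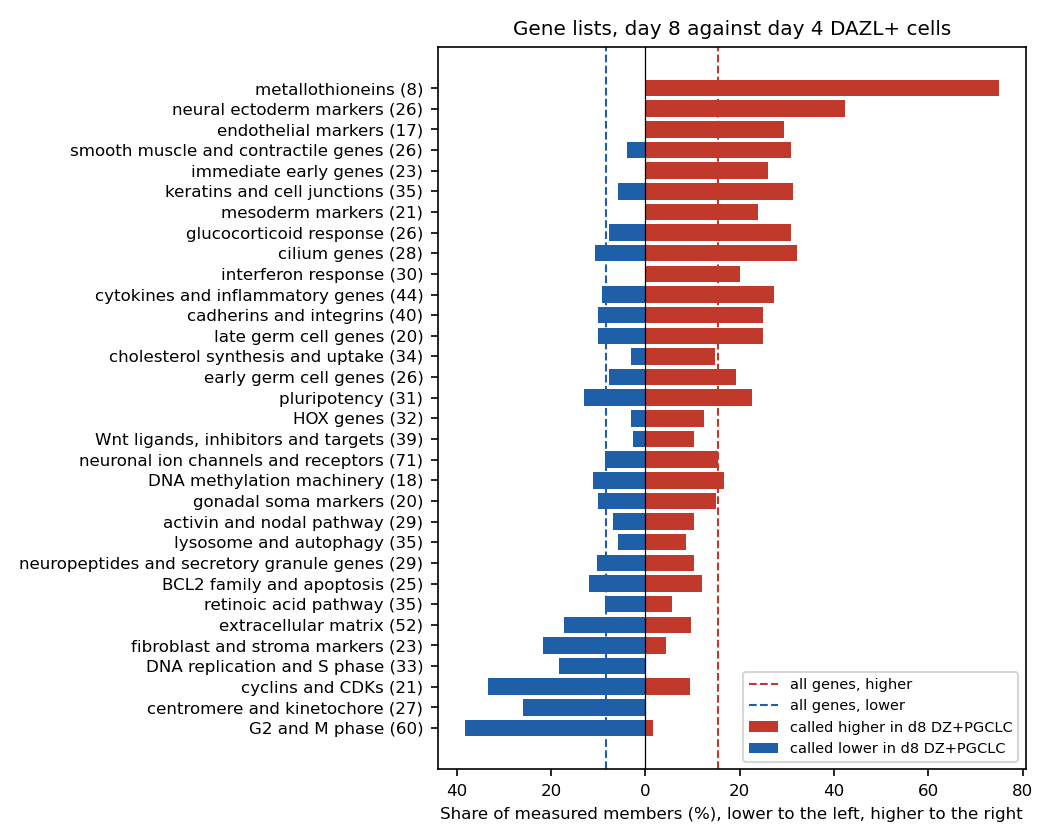
Share of the measured members (%) of each gene list that was called higher (red, to the right) or lower (blue, to the left) in d8 DZ+PGCLC, with the number of members in brackets and the shares over all 9706 genes (15.4% higher, 8.30% lower) as dashed lines. Lists with at least 5 calls are drawn. The metallothionein list, which includes MTF1 and zinc transporters, has the highest share called higher (75.0%) and the genes of G2 and M phase the highest share called lower (38.3%).

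Lists of markers of other cell types were measured as well. Of 26 neural ectoderm markers 11 rose (42.3%) and none fell (2 were lower at an unadjusted p under 0.05), with a median of 1.07 (from 0.52 to 1.11 under the scalings run) and summed RPKM of 154 and 172 in d8 libraries, against 76.4 and 80.8 in d4 libraries. TUBB3 alone had 71.0 and 79.4 of that RPKM in d8 libraries, against 8.00 and 5.33 in d4 libraries. Of the 5 members at level 2 or more 1 rose, with a median of 0.20. ELAVL3, a neuronal RNA-binding protein, rose to 3.39 and 4.23 at d8, against -0.84 and 0.42 at d4 (4.02, adjusted p = 0.00241), and SOX10, a factor of the neural crest, to 1.95 and 2.42 at d8, against -0.43 and -2.60 at d4 (3.70, leave-one-out adjusted p = 0.0568). NEUROG2 (2.19), POU3F1 (2.07) and SOX1 (1.77) were also called, at d8 levels of -1.01 to 1.25, the calls of NEUROG2 and POU3F1 with leave-one-out adjusted p-values of 0.0517 and 0.107. PAX6, a factor that defines neural progenitors, was at 2.53 and 2.57 in d8 libraries, against 2.47 and 2.34 in d4 libraries (adjusted p = 0.826). No neural marker was at 0 in all 4 libraries. The part that neural cells among the sorted cells have in the rise of neuronal genes was not tested.

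In the endothelial list 5 of 17 rose (29.4%) and none fell (2 were lower at an unadjusted p under 0.05), with a median of 1.38 (from 1.05 to 1.47 under the scalings run). Its summed RPKM was 302 and 312 in d8 libraries, against 189.5 and 166 in d4 libraries. The list includes the inducible SOX17, which alone had 202 and 189 of that RPKM in d8 libraries, against 108 and 83.5 in d4 libraries. SOX18 rose to 0.36 and 1.07 at d8, against -2.18 and -1.97 at d4 (2.79, adjusted p = 0.00456). CDH5, which encodes the VE-cadherin of endothelial cells, was near the floor on both days. It was at -2.18 and -2.49 in d8 libraries and at -2.29 and -2.27 in d4 libraries (adjusted p = 0.947). Its mean in DM+PGCLC was 7.32. The study also takes this gene as an indicator of migratory germ cells, so its level alone does not mark endothelium. TEK (1.88), MMRN2 (1.83), ESAM (1.61) and NOS3 (1.47) were called with leave-one-out adjusted p-values of 0.138, 0.152, 0.0639 and 0.222. The mesoderm list rose in 5 of 21 cases (23.8%, against 23.3% of all genes under level 2) and fell in none (0 were lower at an unadjusted p under 0.05). Its median of 0.88 was 0.13 under quantile normalization, with 3 members called higher, and 0.17 with the trend of level removed, with 2. The summed RPKM of the list was 141 and 156 in d8 libraries, against 54.5 and 68.8 in d4 libraries. It was led by SNAI1, a repressor of E-cadherin, at 3.18 and 3.72 at d8, against 1.21 and 0.76 at d4 (2.47, adjusted p = 0.00232), while TBXT, brachyury, was listed at 0 in d4 replicate 1 and near the floor in the other libraries. The endoderm list rose in 3 of 22 cases (13.6%), with a median of 0.78 (from 0.31 to 0.88 under the scalings run) and summed RPKM of 54.0 and 62.2 in d8 libraries, against 30.3 and 24.5 in d4 libraries. In it HHEX was at 2.21 and 2.10 at d8, against 0.20 and -0.99 at d4 (2.55, leave-one-out adjusted p = 0.134), FOXA2 at -1.57 and -1.08 at d8, against -3.32 and -1.96 at d4 (adjusted p = 0.364), and APOC3 was listed at 0 in all 4 libraries. Of 21 amnion and trophoblast markers 3 rose, KRT7 and KRT18 among them, and TFAP2A (-1.03) and GATA3 (-0.27) were not called. Of 20 gonadal soma markers SOX9, SOX8 and GATA4 rose and FST and LHX9 (leave-one-out adjusted p = 0.105) fell. SOX9, the factor of Sertoli cells, was at 1.71 and 2.20 at d8, against 0.20 and -0.13 at d4 (1.92, leave-one-out adjusted p = 0.106), SOX8 at 2.14 and 2.10 at d8, against 0.84 and 0.69 at d4 (1.35, adjusted p = 0.0086), and AMH, their hormone, at 5.36 and 5.52 at d8, against 4.11 and 4.90 at d4 (0.93, adjusted p = 0.0329). For all of these lists, the part of other cell types in the calls was not tested. Some rises are counted in several lists. SOX18 is in the endothelial and endoderm lists, and GATA4 in those of endoderm, gonadal soma and early germ cells. FOXD3 is in those of pluripotency and neural ectoderm.

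**Figure D5:**
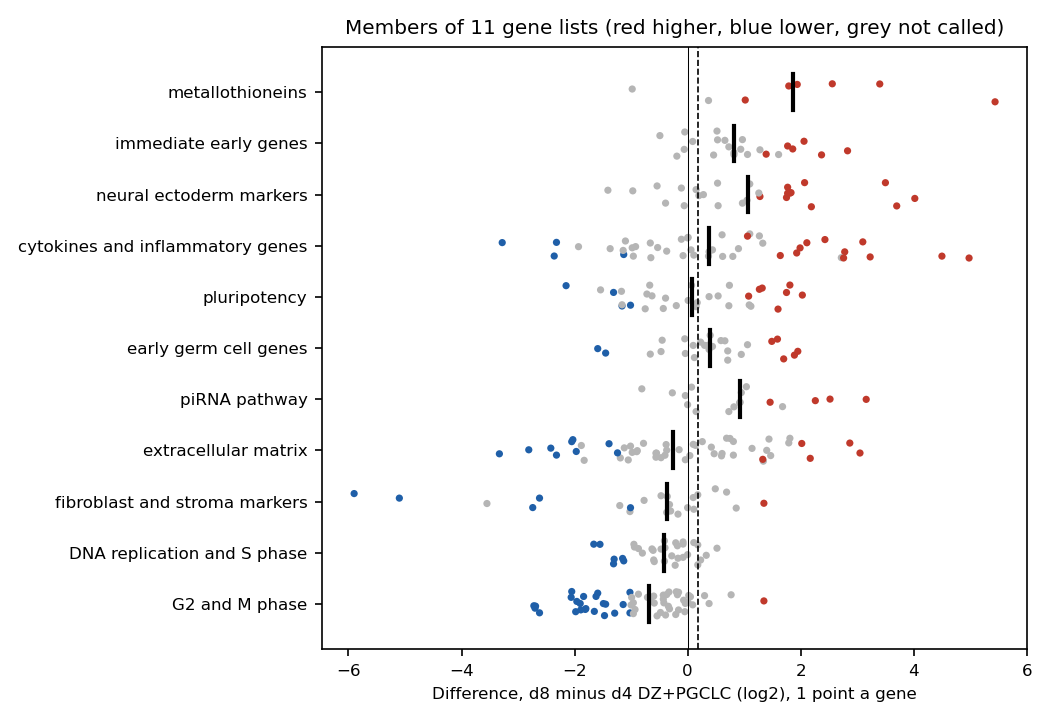
Differences, d8 minus d4 (log2), of the measured members of 11 gene lists, 1 point a gene, in red where called higher, blue where called lower and grey where not called, with the median of each list as a bar and the median of all genes (0.19) as a dashed line. Of 60 genes of G2 and M phase 52 lie left of 0, the metallothionein list has a median of 1.86, and the pluripotency genes are spread on both sides with a median of 0.07.

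Contractile and ciliary genes moved in both directions. Of 26 smooth muscle and contractile genes 8 rose (30.8%) and 1 fell, with a median of 0.89 (from 0.48 to 0.92 under the scalings run). ACTG2, the enteric smooth muscle actin, rose to 0.12 and -0.26 in d8 libraries, against -1.92 and -2.55 in d4 libraries (2.16, adjusted p = 0.00517), TNNI1 to 0.71 and 1.87 at d8, against -1.95 and -1.33 at d4 (2.93, leave-one-out adjusted p = 0.107), and MYL9, a myosin light chain, to 6.42 and 6.18 at d8, against 5.28 and 4.36 at d4 (1.48, leave-one-out adjusted p = 0.0709). ACTA2 was at 5.16 and 5.37 at d8, against 5.37 and 5.20 at d4. Of 28 cilium genes 9 rose (32.1%, against 15.4% of all genes) and 3 fell (10.7%), with 6 higher under quantile normalization. Of the 10 at level 2 or more 1 rose and 3 fell. CFAP53 rose to 3.12 and 3.32 at d8, against -0.12 and 0.56 at d4 (3.00, adjusted p = 0.0045), and RSPH9, of the radial spoke of motile cilia, to 0.79 and 1.35 at d8, against -1.61 and -1.34 at d4 (2.55), while DYNC2H1, the motor of transport within cilia, fell to 2.23 and 2.15 at d8, against 4.33 and 4.47 at d4 (-2.21, SE 0.16, adjusted p = 0.000409). Of 11 lens crystallins 4 were called higher (36.4%, against 15.4% of all genes) and none lower (1 was lower at an unadjusted p under 0.05). The calls of CRYBA1, CRYBA4 and CRYGS had leave-one-out adjusted p-values of 0.137, 0.155 and 0.202, and under quantile normalization or with either trend removed 1 crystallin was higher and 1 lower. Of 29 neuropeptide and secretory genes 3 rose and 3 fell. Besides POMC these were VGF, a granin-like peptide precursor, at 1.44 and 1.63 at d8, against -1.49 and -1.31 at d4 (2.94, adjusted p = 0.00252), NMB at 3.49 and 3.64 at d8, against 1.87 and 1.75 at d4 (1.76), NMU (-2.10) and CPE, a hormone-processing carboxypeptidase (-1.59), with leave-one-out adjusted p-values of 0.122 and 0.112, and NTS, which was listed at 0 in both d8 libraries and stood at -0.72 and -0.34 in d4 libraries (leave-one-out adjusted p = 0.122). Of 71 ion channel and receptor genes 11 rose (15.5%) and 6 fell (8.45%), close to the shares of all genes, with KCNF1 (3.87) and KCNN3 (2.96) at one end and CACNA1D, TRPC6 (-3.23) and SCN3A (-2.53) at the other.

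Genes of metabolism were called at the share of all genes or below it. None of 19 nuclear genes of the respiratory chain was called by limma, with 1 higher and 2 lower at an unadjusted p under 0.05. Of 53 cytosolic ribosomal protein genes only RPL3L, a muscle paralogue of RPL3, was, at 2.65 and 2.77 in d8 libraries, against -0.39 and -0.30 in d4 libraries (3.05). The summed RPKM of the ribosomal list was 30581 and 33341 in d8 libraries, against 33361 and 16690 in d4 libraries, so that the d4 replicates stood further apart than the d8 libraries did. Of 27 glycolysis genes ALDOC (2.87, adjusted p = 0.00192) and NDRG1, a hypoxia-responsive gene (2.20, adjusted p = 0.00229), rose and SLC16A1, a lactate transporter, fell (-1.26, leave-one-out adjusted p = 0.091), with LDHA at 5.58 and 5.97 at d8, against 5.64 and 4.59 at d4. Genes of cholesterol synthesis and uptake rose in 5 of 34 cases (14.7%, against 15.4% of all genes) and fell in 1. NPC1L1, the sterol transporter of the gut, rose to 2.13 and 2.34 at d8, against -1.59 and -1.07 at d4 (3.56, adjusted p = 0.00314). ABCA1, the sterol exporter, fell to 2.58 and 2.26 at d8, against 4.05 and 4.23 at d4 (-1.72, adjusted p = 0.000777). Imprinted genes, a list apart from metabolism, fell in 3 cases (16.7%, against 8.30% of all genes) and rose in 1 (5.56%, against 15.4%). Their median was -0.39, and 14 members were not called. Of 18 imprinted genes PHLDA2, which is expressed from the maternal copy, rose to 1.77 and 2.15 at d8, against -1.43 and -2.21 at d4 (3.78, adjusted p = 0.00207), and the paternally expressed SNURF (-1.71, adjusted p = 0.0033), SGCE (-1.38, adjusted p = 0.00185) and DLK1 (-1.62, leave-one-out adjusted p = 0.223) fell.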

How the data were processed

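Cells of WIS2 with the DAZL reporter were sorted, RNA was depleted of ribosomal RNA, and stranded libraries were sequenced; per the methods, the replicates of a group were independent biological replicates. The deposited values are log2(RPKM + 0.1), 1 column a library, in 3 sheets of the genes that the authors found to differ from 4i ESC. To make them the authors trimmed reads with Trim Galore, mapped them with STAR to GRCh38.p13 (GENCODE), kept reads with a single place and computed RPKM with Cufflinks. The authors used the glm method of edgeR on protein-coding genes to choose the rows, and those columns (fold change and FDR against 4i ESC), 8 sheets of term enrichment and the CUT&RUN samples were not used here. Total reads per library were not among the values, so counting intervals are not given, and 2 replicates limit the precision.

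The sheets were joined by gene, and limma 3.58.1 (R 4.3.3) was fitted with an intensity trend to the 10 libraries as 5 groups, with 5 residual degrees of freedom and d8 minus d4 as the contrast. P-values were adjusted by Benjamini-Hochberg over 9706 genes. A call needed an adjusted p under 0.05 and a log2 difference over 1 in size. RPKM is not a count, so no count test was run. The fit was tested on simulated data. Named were the inducible genes and the sort marker, the 15 highest and 15 lowest called genes at a mean level of 2 or more, and from each gene list the called members (the 6 largest where more were called) with members of known importance, and a few further members chosen after their values were seen. Some members that this rule names are not reported here. The comparison, its genes and the lists were chosen with earlier results of these data known. Alternatives were the pseudocount, filters on level, scalings, the genes tested, the block by replicate number and each library left out. The fit without BCL2L1, the fit without genes listed at 0, the level filter of 2 and the removal of trends with span and level were chosen after seeing the data. Promoters are from RefSeq (GRCh38.p14), and positions of genes from GRCh38.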

Additional observations from a re-analysis of the deposited data

How the results depend on the processing

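The 1493 rises became 871 with a pseudocount of 1, 864 with a mean level over 0, 433 with a mean level of 2 or more and 276 among the genes listed without the d8 libraries, and ranged from 786 to 1227 with a library left out. The 806 falls became 1252 under quantile normalization, 536 with a mean level of 2 or more and 137 among the genes listed without the d8 libraries, and ranged from 472 to 697 with a library left out. The filters and the shorter gene set test fewer genes. The share called also differed, since 276 and 137 of the 2844 genes listed without the d8 libraries compare with 1223 and 678 of the 6862 genes of the d8 list. It was thus higher where the d8 libraries took part in choosing the genes. The causes of these changes in count were not tested. No call of a named gene changed direction under any alternative run. Of 251 named genes with a call, 247 kept it after rescaling without BCL2L1, 247 after median centring, 223 under quantile normalization, 210 with the trend of span removed, 215 with the trend of level removed, 175 with a pseudocount of 1, 225 with a pseudocount of 0.01, 206 in a fit of the 4 DZ+PGCLC libraries alone and between 147 and 177 with a library left out. Same-numbered d8 and d4 libraries did not deviate together (r = -0.038 across 9706 genes), so the numbers are not taken as pairs. With the replicate number as a block 1401 genes were higher and 736 lower. Differences of genes near the floor rest on few reads, at a depth that was estimated as lower in the d4 libraries.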
